A study of Mus musculus with 8 samples.

Results

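The genes described are the 39 protein-coding genes of the mm10 gene table, of 21883 on chromosomes 1 to 19, X and Y, whose symbol is Psma, Psmb, Psmc or Psmd followed by a number. They were examined in ChIP-seq (sequencing of immunoprecipitated chromatin) of APOBEC2, pulled down with a polyclonal rabbit antibody. APOBEC2 is a member of the AID/APOBEC deaminase family, and the cells were C2C12, an established line of mouse myoblasts that stop dividing and form myotubes in low serum. There were 3 immunoprecipitated (IP) libraries and 1 input library at each of 2 times after the change to medium with 2% horse serum, labelled 14 h and 34 h, and 1 deposited peak list belongs to each IP library. The growth protocol in the labels gives the earlier harvest as 24 h, so that time is uncertain. All groups were the same line and serum treatment, and the peak names carry a tag, GFPsh, that the labels do not explain. Separate cultures are not stated for the replicates, so an SD over them may be technical. Peak lists do not measure RNA, so the identity of the cells was not checked against marker genes.

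The 26S proteasome degrades proteins tagged with ubiquitin. Its 20S core is a barrel of stacked rings of alpha subunits (Psma genes), which gate the entry, and beta subunits (Psmb genes), of which Psmb5, Psmb6 and Psmb7 carry the proteolytic sites. The 19S cap binds ubiquitin chains, removes them and threads the unfolded substrate into the core, with a ring of ATPases (Psmc genes) and a set of non-ATPase subunits (most Psmd genes). Psmb8, Psmb9 and Psmb10 replace the catalytic beta subunits in the immunoproteasome, which is induced by interferon-gamma and is abundant in immune cells. Myotubes and muscle fibres rely on the proteasome for the turnover of contractile proteins, above all in atrophy.

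Of the 20 peaks at genes with a promoter entry, 15 had their summit upstream of the nearest start, so upstream regions are printed. These peaks are counted per library, so the sites of Psma1, Psmb3 and Psmc4, all upstream, enter more than once. Each line gives the 250 bases before an annotated transcript start, 5′ to 3′ on the gene's strand, from RefSeq (GRCm38.p6, the same primary assembly as mm10). Psma1, Psmb3 and Psmc4 had peaks in at least 2 libraries of 34 h, Psmb6 had the highest fold of any proteasome gene, the Psma6 line precedes an internal start with a peak, and Psmb9 is an immunoproteasome gene with no peak. Capitals mark matches, on either strand, to the motifs spelled out further on; in Psmc4 the matches TTTCCCGC and GGGCGG overlap. Psmd3, the other gene with a peak in at least 2 libraries, has no entry in the promoter table.
Psma1 (chr7:114276117-114276366, minus strand): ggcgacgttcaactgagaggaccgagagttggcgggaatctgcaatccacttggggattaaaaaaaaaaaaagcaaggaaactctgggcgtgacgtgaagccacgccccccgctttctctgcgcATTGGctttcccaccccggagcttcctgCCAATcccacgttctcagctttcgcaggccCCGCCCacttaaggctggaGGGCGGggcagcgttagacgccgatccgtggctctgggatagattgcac
Psmb3 (chr11:97703184-97703433, plus strand): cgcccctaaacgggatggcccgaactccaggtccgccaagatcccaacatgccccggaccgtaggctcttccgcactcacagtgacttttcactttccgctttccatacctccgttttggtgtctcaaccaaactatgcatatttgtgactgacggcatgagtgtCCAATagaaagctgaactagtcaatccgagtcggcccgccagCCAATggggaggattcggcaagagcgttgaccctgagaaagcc
Psmc4 (chr7:28050093-28050342, minus strand): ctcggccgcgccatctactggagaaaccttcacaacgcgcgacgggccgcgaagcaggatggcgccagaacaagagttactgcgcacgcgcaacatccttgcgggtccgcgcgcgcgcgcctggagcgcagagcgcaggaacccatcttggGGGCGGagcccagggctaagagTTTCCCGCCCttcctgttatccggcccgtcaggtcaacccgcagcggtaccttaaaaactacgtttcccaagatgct
Psmb6 (chr11:70525107-70525356, plus strand): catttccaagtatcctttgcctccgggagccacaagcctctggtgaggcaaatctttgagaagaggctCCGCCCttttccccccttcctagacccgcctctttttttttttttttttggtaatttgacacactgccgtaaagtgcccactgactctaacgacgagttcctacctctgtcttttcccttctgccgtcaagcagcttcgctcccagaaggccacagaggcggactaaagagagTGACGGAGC
Psma6 (chr12:55398575-55398824, plus strand): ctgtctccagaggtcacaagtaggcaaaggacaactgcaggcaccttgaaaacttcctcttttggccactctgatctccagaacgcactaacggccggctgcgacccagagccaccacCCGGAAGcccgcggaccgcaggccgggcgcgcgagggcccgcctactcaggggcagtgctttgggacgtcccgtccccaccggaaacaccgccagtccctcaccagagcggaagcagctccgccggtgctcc
Psmb9 (chr17:34187331-34187580, minus strand): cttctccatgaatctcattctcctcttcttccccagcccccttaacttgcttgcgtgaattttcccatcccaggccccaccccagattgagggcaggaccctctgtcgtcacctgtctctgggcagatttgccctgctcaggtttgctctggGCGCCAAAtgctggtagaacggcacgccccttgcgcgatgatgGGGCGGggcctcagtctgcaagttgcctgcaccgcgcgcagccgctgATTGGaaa

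At 14 h 2 of the 39 proteasome genes had a called peak in any library, a share close to that of all genes. A gene was counted when a peak overlapped it, or the 1 kb beyond its start or end, by at least 1 bp. None of the 39 genes had a region found in at least 2 of the 3 libraries at 14 h (exact Clopper-Pearson 95% interval of the share 0 to 9.03%), and 4.27% of all protein-coding genes had one. The number of proteasome genes with a peak was 2 in replicate 1 and 0 in replicates 2 and 3, where 3.72%, 6.50% and 3.97% of all genes had one. Intervals of this kind treat genes as independent draws, though the genes share the same libraries, and no test against all genes was made. In any library of 14 h the share was 5.13%, beside 6.96% of all genes. The 2 genes were Psmc4, an ATPase of the cap, and Psmd5, a chaperone that assists assembly of the cap. No gene of the 20S core had a peak at that time.

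A region shared by at least 2 libraries of 34 h was found at 4 of the 39 genes (10.3%, exact 95% interval 2.87 to 24.2%), beside 8.79% of all protein-coding genes. These were Psma1, an alpha ring subunit, Psmb3, a beta ring subunit without a proteolytic site, Psmc4, and Psmd3, a non-ATPase subunit of the cap. Psma1 and Psmb3 had peaks in all 3 libraries (2 of 39, 5.13%, beside 3.93% of all genes). These shares lie close to those of all genes. By library, 4 proteasome genes had a peak in replicate 1 (10.3%, all genes 9.24%), 15 in replicate 2 (38.5%, exact 95% interval 23.4 to 55.4%, all genes 18.1%) and 2 in replicate 3 (5.13%, all genes 4.70%).

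Replicate 2 of 34 h, the longest list, thus held a peak at most of the proteasome genes called. All 15 genes called at 34 h had a peak in it, and 11 of them (73.3%) had none in the other libraries of 34 h. Of the 3945 other genes with a peak in that library, 50.2% had none in the others of that time. In any library of 34 h 15 of 39 (38.5%) had one, beside 19.1% of all genes, and without replicate 2 there were 4. When every list was shortened to 768 peaks, ranked by −log10 p, 3 proteasome genes were left in replicate 2 (Psmb3, Psmb6 and Psmd4; 7.69%, all genes 3.62%). By replicate, list lengths were 768, 1327 and 797 peaks for 14 h and 2209, 5025 and 1068 peaks for 34 h. The part of list length in these counts was not tested further.

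The mean number of proteasome genes with a peak was 0.667 ± 1.15 for 14 h (SD, n = 3) and 7.00 ± 7.00 for 34 h (SD, n = 3), or 1.71% ± 2.96 and 17.9% ± 17.9 of the genes. For all other genes the shares were 4.74% ± 1.54 and 10.7% ± 6.79. The libraries of the times overlapped, since replicate 1 of 14 h and replicate 3 of 34 h each had 2 genes, and the SD at 34 h equals the mean. Over both times 16 of 39 genes (41.0%, all genes 20.2%) had a peak in any of the 6 libraries. Psmc4 was the only one with a peak at both times (2.56%, all genes 5.87%).

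**Figure D1:**
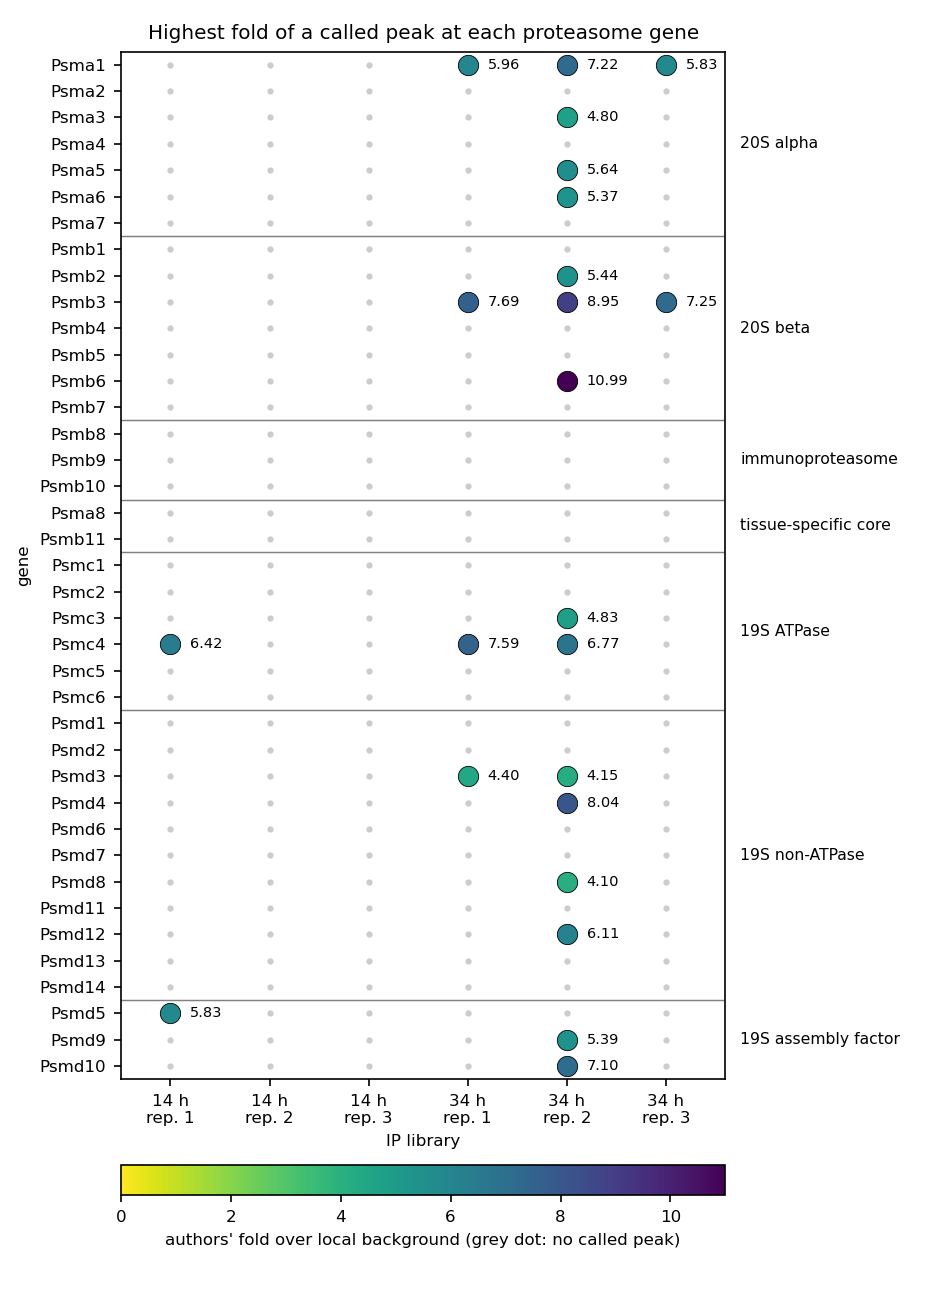
Highest fold of a called peak over local background at each of the 39 proteasome genes (rows, grouped by class) in the 6 IP libraries (columns); colour and printed value give the authors' fold, and a grey dot stands for no called peak. Only Psmc4 and Psmd5 have a peak at 14 h, 15 genes have one in replicate 2 of 34 h, and the immunoproteasome and tissue-specific rows are empty.

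Among the alpha subunits, Psma1 stood out by its 3 libraries. Its fold, the caller's ratio of IP fragments at the summit to local background with 1 added to each, was 5.96, 7.22 and 5.83 in replicates 1, 2 and 3 of 34 h, with a mean of 6.34 ± 0.768 (SD, n = 3). The summits stood on 13, 18 and 13 fragments, and no library of 14 h had a peak there. The 3 folds lay between the 45.2nd and 77.4th percentile of their lists, so these were peaks of middling height. The remaining alpha genes with a peak were Psma5, Psma6 and Psma3, each in replicate 2 of 34 h alone. Their folds were 5.64 at Psma5, 5.37 at Psma6 and 4.80 and 3.67 at 2 separate sites of Psma3. Psma2, Psma4 and Psma7 had no peak in any library.

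Among the beta subunits, Psmb3 had the highest reproducible signal of all proteasome genes. Its fold was 7.69, 8.95 and 7.25 in replicates 1, 2 and 3 of 34 h, with a mean of 7.96 ± 0.882 (SD, n = 3), on 22, 30 and 21 fragments. Every 34 h library thus had a peak and no 14 h library did. The same peaks lay 803 to 859 bp from the start or end of Pcgf2, a Polycomb group gene, and so within the 1 kb window of both genes. Psmb6, a catalytic subunit gene, had the highest fold of all, 10.99 on 31 fragments (93.4th percentile of its list), but in replicate 2 of 34 h alone. Psmb2 had a fold of 5.44 in the same library. The other catalytic genes, Psmb5 and Psmb7, and Psmb1 and Psmb4 had no peak.

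The immunoproteasome genes Psmb8, Psmb9 and Psmb10 had no peak in any of the 6 libraries, nor did Psma8, a core subunit of the testis, and Psmb11, the subunit of the thymoproteasome. Of all protein-coding genes, 20.2% had one in any of the 6. With only 3 genes, 0 of 3 in replicate 2 of 34 h has an exact 95% interval of 0 to 70.8%, so no difference from the other core genes could be seen at this number.

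Of the 6 ATPase genes of the cap, 2 had a peak in any library, Psmc4 and Psmc3, beside 20.2% of all genes. Psmc4 had a fold of 6.42 in replicate 1 of 14 h, and of 7.59 and 6.77 in replicates 1 and 2 of 34 h (mean 7.18 ± 0.580, SD, n = 2), on 11, 19 and 19 fragments. Replicates 2 and 3 of 14 h and replicate 3 of 34 h had none there, so neither time was uniform. Psmc3 had a fold of 4.83 in replicate 2 of 34 h. Psmc1, Psmc2, Psmc5 and Psmc6 had no peak.

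Of the 11 non-ATPase genes of the cap, Psmd3, Psmd4, Psmd8 and Psmd12 had a peak, all at 34 h (36.4%, beside 19.1% of all genes). Psmd3 had a fold of 4.40 in replicate 1 and 4.15 in replicate 2 (mean 4.28 ± 0.177, SD, n = 2), each on 22 fragments. These folds were low in their lists, at the 9.40th and 7.58th percentile, over a local background of 4.23 and 4.54 fragments before the added 1. Psmd4, the gene of a ubiquitin receptor, had a fold of 8.04 on 33 fragments, the most at any proteasome gene, in replicate 2 alone. Psmd12 had 6.11 and Psmd8 had 4.10 in that library. Psmd8 shared its peak with the 1 kb window of Catsperg1, whose start or end lay 923 bp from the summit. Psmd1, Psmd2, Psmd6, Psmd7, Psmd11, Psmd13 and Psmd14, the gene of the cap's deubiquitinase, had no peak.

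Psmd5, Psmd9 and Psmd10 encode factors that assist assembly of the cap and are not part of the finished particle. Each of the 3 had a peak in 1 library, beside 20.2% of all genes with one in any of the 6 libraries. The peak of Psmd5 was in replicate 1 of 14 h (fold 5.83, 12 fragments). Those of Psmd9 (5.39, 14 fragments) and Psmd10 (7.10, 19 fragments) were in replicate 2 of 34 h. None of the 3 was seen in a further library.

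In replicate 2 of 34 h, 7 of 14 constitutive core genes (50.0%, exact 95% interval 23.0 to 77.0%) and 6 of 17 cap genes (35.3%, interval 14.2 to 61.7%) had a peak, beside 18.1% of all genes. The intervals, which cover counting error only, overlap over most of their length. In at least 2 libraries of 34 h the counts were 2 of 14 (14.3%) and 2 of 17 (11.8%), near the 8.79% of all genes. The difference between core and cap was not tested, and these counts do not separate them. In all 3 libraries of 34 h, 2 core genes (14.3%) and 0 cap genes had a peak, beside 3.93% of all genes.

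Other gene sets for large housekeeping machines were set beside the proteasome. In replicate 2 of 34 h, 27.6% of 76 cytosolic ribosomal protein genes, 66.7% of 9 genes of the CCT chaperonin family and 45.0% of 20 cytosolic aminoacyl-tRNA synthetase genes had a peak, as against 38.5% of the proteasome genes. All 4 sets lay above the 18.1% of all genes in that library. In at least 2 libraries of 34 h the shares were 9.21% for ribosomal proteins, 33.3% for chaperonin genes 25.0% for synthetases and 10.3% for the proteasome, beside 8.79% of all genes. At 14 h in at least 2 libraries they were 2.63%, 0% and 10.0%, and 0% for the proteasome, beside 4.27% of all genes. The differences between sets were not tested.

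**Figure D2:**
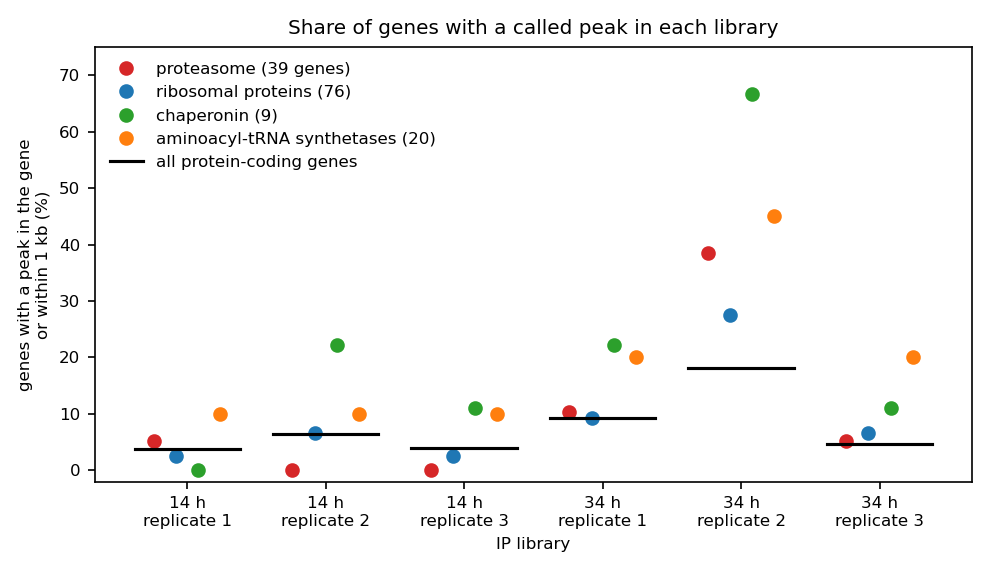
Share of genes (%) with a peak in the gene or within 1 kb, in each of the 6 IP libraries, for the proteasome and 3 other gene sets (points) and for all protein-coding genes (black lines). The proteasome lies at 0% in replicates 2 and 3 of 14 h, at 38.5% in replicate 2 of 34 h, and close to the line in the other 3 libraries.

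Peaks at proteasome genes sat close to transcript starts. Of 24 peaks, 23 had their summit within 197 bp of an annotated transcript start, or, for the 4 peaks at Psmc3, Psmb2 and Psmd3, which have no promoter entry, of the gene boundary of lower coordinate. The exception was the weaker peak of Psma3, 604 bp outside the gene. The 197 bp is the largest distance among the 23, and no share of other genes' peaks within it is given. Peaks of Psma1, Psmb3, Psmc4 and Psmd3 are counted once per library. At Psma6 the summit lay 14531 bp inside the gene but 72 bp upstream of the internal start whose sequence is printed above. The stronger peak of Psma3 likewise lay 5369 bp from the gene's boundary and 29 bp after its annotated start. The 15 summits upstream of a start, of 20 at genes with a promoter entry, include the farther Psma3 peak. Those of Psma1, Psmb3 and Psmc4 enter that count more than once.

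The summits of Psma1, Psmb3 and Psmc4 fell on the printed sequences, and Psmd3 has none printed. Those of Psma1 lay 170, 92 and 123 bp upstream of the start in replicates 1, 2 and 3 of 34 h, and those of Psmb3 141, 167 and 197 bp upstream. Those of Psmc4 lay 107 bp upstream in replicate 1 of 14 h and 67 and 92 bp upstream in replicates 1 and 2 of 34 h. The sites of 14 h and 34 h at Psmc4 thus overlapped (chr7:28050157-28050292 at 14 h, chr7:28050010-28050385 and chr7:28050000-28050339 at 34 h). In replicate 2 of 34 h, 9 of 13 pairs of a peak and a proteasome gene (69.2%) had the summit between 250 bases before and 50 after a start of that gene, and 54.0% of 3776 such pairs of other genes did. This difference was not tested.

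**Figure D3:**
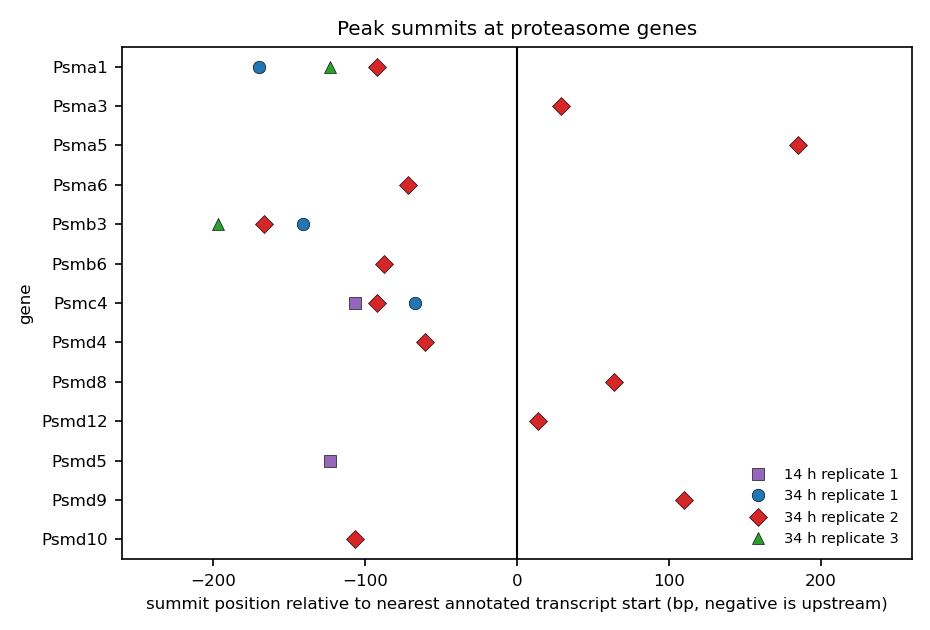
Distance in bp from the nearest annotated transcript start (0, black line; negative is upstream) to the summit of each peak at the proteasome genes with a promoter entry, by library (symbols); the farther Psma3 peak is left out. Summits of Psma1, Psmb3 and Psmc4 lie between 67 and 197 bp upstream in every library that has one.

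Promoter entries were found for 32 of the 39 genes (82.1%), in 34 windows, and for 79.9% of all protein-coding genes. The genes without one were Psmb1, Psmb2, Psmb7, Psmc3, Psmd3, Psmd7 and Psma8. In the 250 bases upstream, proteasome windows had a median GC content of 55.2% and a median of 15.0 CpG dinucleotides, beside 55.6% and 10.0 over 21262 windows of all genes. Windows of proteasome genes with a peak had a median of 13.5 CpG and those without 15.0. Windows were assigned by gene, so those with a peak include the outer Psma6 window, which has 2 CpG and no summit. Peaks were more often called at genes with many CpG: in replicate 2 of 34 h, 3.13%, 21.2% and 32.9% of all genes with 0 to 5, 6 to 17 and 18 to 56 CpG upstream had one, groups of similar size by the richest window of each gene. Of proteasome genes, 0 of 2, 7 of 18 (38.9%) and 5 of 12 (41.7%) did. Of those with a promoter entry, only Psmb10 and Psmb11 had 5 or fewer CpG, so most proteasome genes lay where peaks were frequent, and the part of base composition in their share was not tested.

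**Figure D4:**
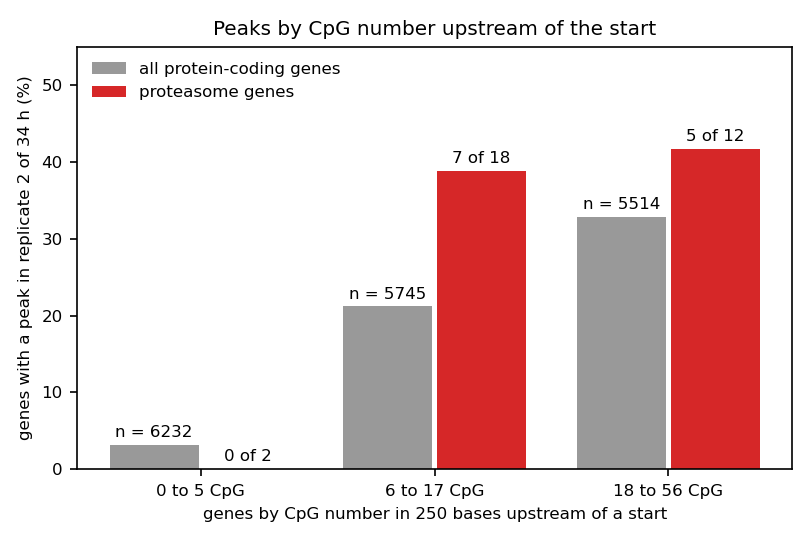
Share of genes (%) with a peak in replicate 2 of 34 h, for all protein-coding genes (grey) and proteasome genes (red), in 3 groups of genes by the CpG number of the 250 bases upstream of a start (the richest window of each gene). Grey bars are 3.13%, 21.2% and 32.9%, red bars 0%, 38.9% and 41.7%, with the numbers of genes above the bars.

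Sequence motifs were counted in the same 250 bases on both strands. The core of the antioxidant response element, TGACNNNGC, through which Nfe2l1 is known to drive proteasome genes, was in 5 of 34 proteasome windows (14.7%; 10.4% of all windows). They belonged to Psmb5, Psmb6, Psmc6, Psmd9 and Psmd12, 3 of the 14 windows of genes with a peak and 2 of the 20 without. The peaks at Psmb6, Psmd9 and Psmd12 were in replicate 2 of 34 h alone, and a link between motif and peak was not tested. The ETS motif CCGGAAG was in 10 windows (29.4%; 8.98% of all), 3 of the 14 windows of genes with a peak and 7 of the 20 without. GGGCGG, the SP1 motif, was in 18 windows (52.9%; 42.6% of all), 8 of 14 with a peak and 10 of 20 without. CCAAT was in 13 windows (38.2%; 35.4% of all), 6 of 14 and 7 of 20. The outer Psma6 window, which has no summit, is among the 6.

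Motifs of cell cycle promoters were in few proteasome windows. Each of the 2 kinds was in 2 windows, too few to give a direction beside all windows, and no difference was tested. An E2F form (TTTCCCGC, TTTGGCGC or TTTCGCGC) was in 2 windows (5.88%; 2.01% of all), TTTCCCGC at Psmc4, which had peaks at both times, and TTTGGCGC at Psmb9, which had none. A cell cycle homology region form (TTTGAA or TTCGAA) was also in 2 windows (5.88%; 15.9% of all), at Psmd1 without a peak and Psmd10 with one. CACGTG, the E-box, was in 3 windows (8.82%; 6.63% of all), and the palindromic motif of nuclear respiratory factor 1 was in 1, that of Psma2 (2.94%; 1.07% of all). These matches describe letters in the windows and not binding of a factor.

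Other genes of the ubiquitin and proteasome pathway were counted by the same rule. Of 40 listed, 39 were matched (Paaf1 was not), and 2 (5.13%, all genes 4.27%) had a region of at least 2 libraries at 14 h and 5 (12.8%, all genes 8.79%) at 34 h. Uchl5, a deubiquitinase that docks on the cap, had folds of 10.1 and 7.73 in replicates 2 and 3 of 14 h and 5.69 and 8.25 in replicates 1 and 2 of 34 h. Zfand2a, an arsenite-inducible cap partner, had 4.99 and 8.16, and 5.88 and 6.05, in the same libraries. These 2 genes therefore had peaks in 4 libraries each, more than any subunit gene.

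The remaining 3 were seen in at least 2 libraries at 34 h only. Nub1, which delivers NEDD8-tagged proteins to the proteasome, had folds of 4.81, 4.94 and 5.68 in replicates 1, 2 and 3. Psmg2, an assembly chaperone of the core, had 7.62 and 6.62 in replicates 1 and 2 of 34 h, and 9.57 in replicate 2 of 14 h. Fbxo7, an F-box protein that binds a proteasome regulator, had 5.34 and 4.93 in replicates 1 and 2. In replicate 2 of 34 h, 17 of the 39 genes (43.6%, all genes 18.1%) had a peak, the ubiquitin gene Ubb, the ubiquitin-activating enzyme genes Uba1 and Uba6 and the unfoldase gene Vcp among them. The genes of the transcription factors Nfe2l1 and Nfe2l2 had no peak in any library.

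A gene with no called peak is not shown to be unbound. Peaks at proteasome genes stood on 11 to 33 fragments, with a median of 19 and a median fold of 5.89, and the median peak of a list stood on 19 to 24 fragments. The lowest −log10 q in a list was between 1.58 and 2.90, so the lists end at unequal significance. No library with a control antibody or from cells without APOBEC2 was used here.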

How the data were processed

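Peak lists of 6 IP libraries were used; groups and replicate numbers came from the sample titles, and the 2 inputs have no peak list here. Subread for alignment, MACS2 for peak calling and the mm10 build are named in the submitters' processing notes, with no version or threshold. The authors called peaks per library against the input of the same time, per the names in the files. The deposited fold is a ratio of IP to local background at the summit, here taken with 1 added to each term, under which fold and p-value gave whole fragment numbers. The deposited −log10 p-value and q-value columns, and an integer score, are the caller's; the score was not used further. The deposited summit lists matched the peak lists in all 6 libraries.

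Peaks were joined to genes of NCBI RefSeq GRCm38.p6 (Python 3.11.15, pandas 2.3.3, scipy 1.17.1). Regions merged peaks of a time that overlapped by at least 1 bp. Fragments at a summit were solved from fold and −log10 p, to within 0.001 for 100% of peaks. They set the precision of a fold; library depth is not given. Results are counts beside the share of all protein-coding genes, with no test between times or classes. Counting and solving were tested on simulated data.

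Named genes were all members with a peak (full values where at least 2 libraries of a time had one), members without a peak by class, and listed pathway genes with such a region; Ubb, Uba1, Uba6, Vcp, Nfe2l1 and Nfe2l2 were added after their values were seen. Members, lists and motifs were chosen with earlier results of these data known. The alternatives tried were equal list lengths, a −log10 q of at least 5, other windows, summits in the window, 50% reciprocal overlap, all 3 libraries and each library left out.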

Additional observations from a re-analysis of the deposited data

How the results depend on the processing

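Of 60 recomputed counts, 48 stayed within 1.5 times the reported one and 12 did not. With lists of equal length (768 peaks each), the genes with a region of at least 2 libraries at 34 h numbered 1 (2.56%, all genes 3.15%) in place of 4, and those with a peak in any library of 34 h numbered 4 (10.3%, all genes 5.33%) in place of 15, with 2 core genes in place of 7 and 2 cap genes in place of 6. With all 3 libraries required, 2 genes were left at 34 h in place of 4. At a −log10 q of at least 5, 1 gene was left at 14 h in any library in place of 2. Leaving out each library in turn gave 2 to 4 genes for at least 2 libraries at 34 h (2 without replicate 1 or replicate 2, with both remaining libraries required) and 0 to 2 for any library at 14 h (0 without replicate 1). For any library at 34 h it gave 4 to 15 genes, 2 to 7 core genes and 2 to 6 cap genes, each lowest without replicate 2. Fewer peaks entered under these settings, except where all 3 libraries were required of the same lists. The count of 0 for at least 2 libraries at 14 h and that of 0 immunoproteasome genes at 34 h were the same under all 10 and 8 alternatives run. Only the window of 5 kb could have raised a count of 0, since the other settings kept a part of the same calls. Leaving out replicate 1 or replicate 3 of 34 h could not change the 15, since all 15 genes had a peak in replicate 2. The 48 thus include counts that could not move. No paired analysis was possible because the results come from no test. Summits on few fragments limit what a missing peak can show.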
